A study of Mus musculus with 8 samples.

Results

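The translation initiation and elongation factors are the proteins that load ribosomes onto messenger RNA, find the start codon and carry transfer RNAs to the ribosome. Their genes were taken as the rows whose RefSeq accession named a mouse gene with a symbol starting with Eif or Eef and a number, with a value on at least 3 arrays. The rule found 27 rows, each of a different gene. Of these, 26 qualified, out of 6308 named genes with values on at least 3 arrays. Eef1akmt4, a lysine methyltransferase of elongation factor eEF1A, had values of -0.58 on array 1 and -0.04 on array 5 alone and was left out. The reference table lists 71 protein-coding genes with such symbols, so fewer than all of the family were measured under these names.

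The study set skin RNA of near naked hairless mutant mice against skin RNA of wild type mice, both aged 7 days, on 8 spotted 2-colour arrays. Near naked is a mutation of the hairless locus that leaves mice with sparse hair. Per the design text, 5 biological replicates came from 1 litter, and arrays are not tied to animals in the labels, so some arrays shared RNA of an animal. The p-values below treat arrays as replicates, are therefore too small, and measure in part a technical spread. The labels give no strain, sex or zygosity. The RNA called sample carried Cy3 on arrays 1, 3, 5 and 8 and Cy5 on arrays 2, 4, 6 and 7. That RNA was taken to be the mutant's and the RNA called control the wild type's.

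Values are the authors' log ratios, taken as log2 of mutant over wild type. The base is not stated. The direction is likely but not stated: the mutant is named first in the design text and the sample is the first channel. If it ran the other way, higher and lower would change places throughout. Between 9585 and 20519 of the 23232 rows had a value on an array, with the fewest on arrays 3, 2 and 1, and the SD over rows ran from 0.57 on array 5 to 1.599 on array 2. Arrays 2 and 8 stood apart for several of the genes below. Correlations over probes between arrays of the same dye orientation were all positive (12 pairs, median r = 0.49), while those of opposite orientation ran from -0.52 to 0.31 (16 pairs). Among the 232 replicate spots of Gapdh the 16 opposite pairs were all negative, so the table was read as already turned to 1 direction. The reading as Cy5 over Cy3 was run as an alternative. Ratios carry no level, so defining markers cannot show which tissue was hybridised. The hairless gene Hr, with values on 6 arrays and a mean of -0.17 ± 0.64 (SD, n = 6), does not check the labels.

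Initiation begins when eIF2, a complex of 3 kinds of subunit, brings the initiator transfer RNA to the small ribosomal subunit. The scaffold eIF3 and the scanning factor eIF1A join there, and the eIF4 factors bind the messenger RNA cap and unwind the leader. The exchange factor eIF2B recharges eIF2 with GTP. Stress kinases phosphorylate the alpha subunit of eIF2, which blocks that exchange, and the eIF4E binding proteins hold the cap-binding protein away from its scaffold. In elongation eEF1A delivers charged transfer RNAs, the eEF1B complex recharges eEF1A, and the kinase Eef2k inhibits eEF2. Skin growing its first hair coat makes large amounts of keratin and other structural protein.

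The 250 bases before the annotated start of Eef1a2, Eif2s1 and Eif2s2 are shown because Eef1a2 was the gene that fell and because Eif2s1 and Eif2s2, which encode subunits of 1 complex, had like ratios across arrays. They come from the RefSeq annotation of GRCm38.p6 and are written 5′ to 3′ on the strand of the gene. Eef1a2 lies at chr2:181157016-181157265 on the minus strand, Eif2s1 at chr12:78861822-78862071 on the plus strand and Eif2s2 at chr2:154892907-154893156 on the minus strand. Capitals mark a GC box, the letters GGGCGG or their reverse complement CCGCCC.
Eef1a2: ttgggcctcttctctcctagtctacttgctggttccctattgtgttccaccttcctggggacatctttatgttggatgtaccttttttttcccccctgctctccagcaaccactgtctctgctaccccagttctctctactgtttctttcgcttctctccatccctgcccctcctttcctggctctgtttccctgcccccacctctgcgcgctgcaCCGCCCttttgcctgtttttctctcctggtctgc
Eif2s1: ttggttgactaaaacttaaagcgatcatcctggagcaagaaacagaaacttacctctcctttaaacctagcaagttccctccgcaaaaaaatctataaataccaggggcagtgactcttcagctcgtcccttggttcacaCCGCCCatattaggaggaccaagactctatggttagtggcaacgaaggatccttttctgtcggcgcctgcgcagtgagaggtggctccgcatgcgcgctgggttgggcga
Eif2s2: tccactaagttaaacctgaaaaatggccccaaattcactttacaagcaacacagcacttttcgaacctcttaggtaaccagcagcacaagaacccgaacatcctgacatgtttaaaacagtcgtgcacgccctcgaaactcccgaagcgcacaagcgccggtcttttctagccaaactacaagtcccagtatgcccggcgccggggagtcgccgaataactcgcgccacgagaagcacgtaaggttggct
The Eef1a2 stretch holds 76.8% C and T, a share that 0.119% of the 32851 windows of the reference reach, against 41.2% to 64.8% in the windows of the other translation factor genes. Its GC box begins at position -34 from the start, that of Eif2s1 at -110, and the Eif2s2 stretch holds none.

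Promoter windows were given for 20 of the 26 genes, 24 windows in all, with several starts for some genes. A GC box on either strand stood within the 250 bases before the start in 15 of 24 windows, 62.5% against 32.7% of all windows. These windows were also richer in G and C, with a median of 56.6% against 52.4% over all windows. The ETS core CCGGAAG, searched on both strands, stood in 4 windows, those of Eif1ax, Eif3d, Eif3g and Eif4ebp2 (16.7% against 6.91%). The E-box CACGTG stood in 2, of Eef2k and Eif4e (8.33% against 6.02%), and the E-box CAGCTG in 1, of Eif4e (4.17% against 13.0%). The terminal oligopyrimidine start, a C followed by at least 4 C or T at the first base of the transcript, is known for growth-controlled translation of ribosomal and elongation factor messages. By the annotated starts 1 window had it, that of Eif2s3x with CTTTTCTCTCC, and 2.51% of all windows did. Annotated starts can lie a few bases from the one in use. These matches describe letters only.

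Among the 26 genes, 20 were measured on 3 or 4 arrays of each dye orientation and were tested with limma, which fits linear models across all genes, here for the mean ratio and the dye effect. Of the 20, 1 fell, none rose and 19 did not pass (Benjamini-Hochberg adjusted p below 0.05 over 3779 genes). The gene that fell was Eef1a2. Over all genes tested 3.47% passed, 2.8% lower and 0.662% higher, so 1 in 20 lies near the background. The calls over all genes were 25 higher and 106 lower, and with quantile normalization 128 higher and 222 lower. At an unadjusted p below 0.05 the count was 6, Eef1a2 with Eif2s1, Eef1g, Eif3a, Eif4ebp1 and Eif2ak4, while 19.5% of all genes tested (737 of 3779) were below it. Fitted ratios were above 0 for 13 of 20 and had a median of 0.21, against 55.3% above 0 and a median of 0.05 over all genes. With the table read as Cy5 over Cy3 both medians were below 0, at -0.039 and -0.056. The other 6 genes, Eif2s3y, Eif2ak1, Eif2ak3, Eif3g, Eif4a2 and Eif4e, are given by their values. A looser filter, with at least 3 arrays and 1 of each orientation, admitted all 26 to a test, and Eef1a2 alone passed (percent called over all genes, 1.7%).

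**Figure D1:**
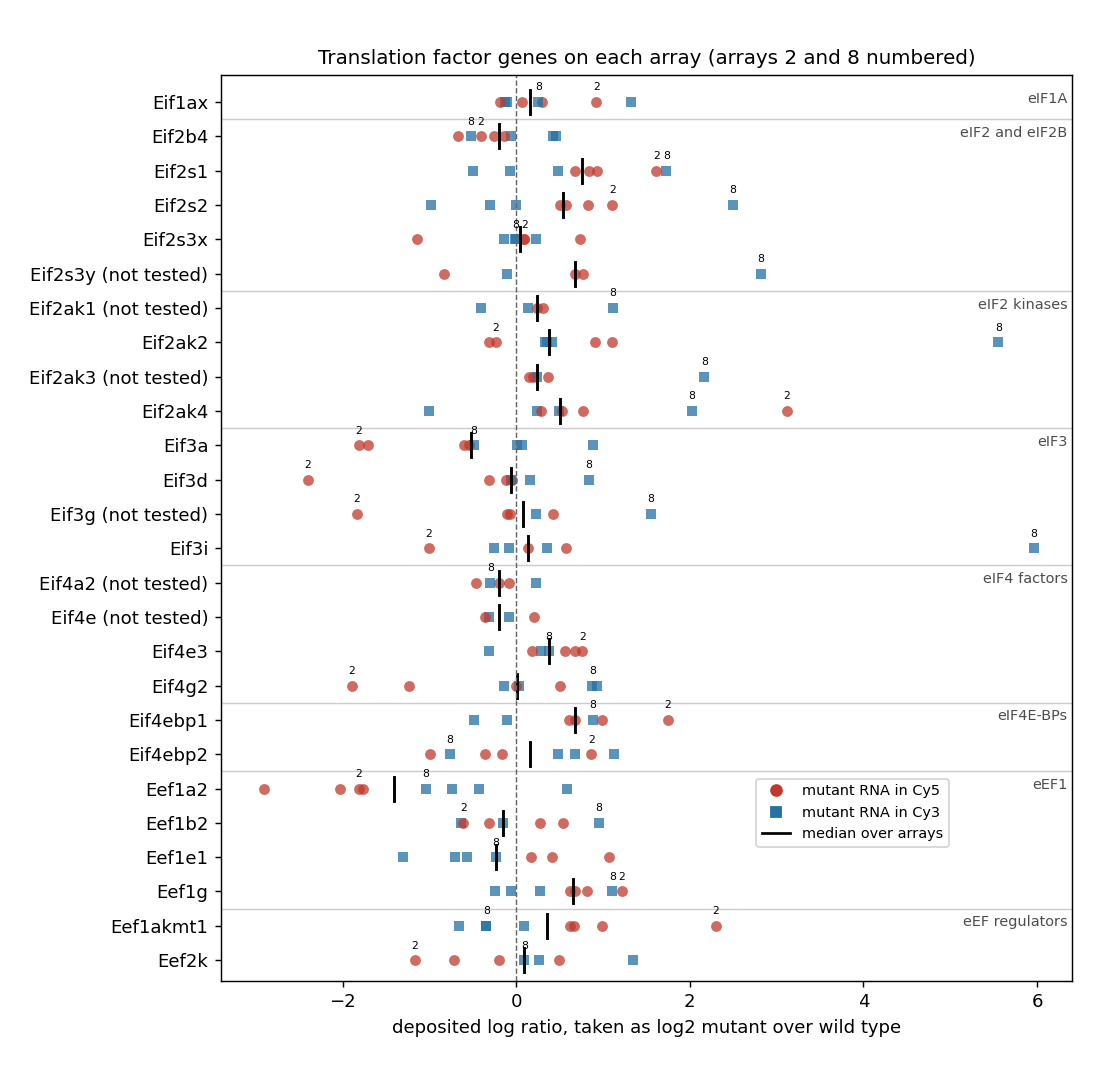
Deposited log ratios of the 26 translation factor genes (horizontal axis, taken as log2 of mutant over wild type), 1 point for each array with a value; red circles are arrays with the mutant RNA in Cy5, blue squares those with it in Cy3, and the bar is the median over arrays. Eef1a2 lies below 0 on 7 of 8 arrays, and the points of Eif2ak2 at 5.55 and Eif3i at 5.96 are array 8.

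Eef1a2 was lower in the mutant skin. It encodes the form of eEF1A that replaces the general form in skeletal muscle, heart and neurons. The ratios were -0.74 on array 1, -1.81 on array 2, 0.59 on array 3, -2.90 on array 4, -0.43 on array 5, -1.77 on array 6, -2.02 on array 7 and -1.04 on array 8. Array 3 alone was above 0, and the 4 arrays with the mutant in Cy5 were all below the 4 with the mutant in Cy3. Over all genes tested 26.4% had no overlap between the orientations. The fitted ratio was -1.26 ± 0.22 (SE, 8 arrays, 95% interval -1.74 to -0.79, limma adjusted p = 0.0101), or 2.40-fold lower if the base is 2. Its ratio ranked 60 from the lowest and its p 33 among the 3779 genes. The mean was -2.13 ± 0.53 (SD, n = 4) with the mutant in Cy5 and -0.40 ± 0.71 (SD, n = 4) with it in Cy3, a difference of -1.72 that did not pass the test of the dye part (adjusted p = 0.0572). The call held without any 1 array, with ratios from -1.43 to -1.14 and adjusted p up to 0.0416, and without arrays 2 and 8 (-1.21, adjusted p = 0.0206). It ended without the dye term (adjusted p = 0.0769), on arrays 4 to 8 alone (-1.48, adjusted p = 0.0603) and with the table read as Cy5 over Cy3 (-0.86, adjusted p = 0.0572).

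Muscle and nerve genes were read beside Eef1a2, since these tissues can be part of a skin sample. Of 7 skeletal muscle markers, 4 were on the array and 1 was tested, the fast troponin T gene Tnnt3, at -1.23 ± 0.34 (SE, limma adjusted p = 0.0721). Its ratios were -1.09, -3.06, 1.78, -1.20, -0.65, -1.47, -3.14 and -0.97 on arrays 1 to 8, so that array 3 was again the single array above 0. Over the 8 arrays Tnnt3 and Eef1a2 correlated at r = 0.74, and at 0.86 without arrays 3 and 4, a description of values that share arrays and orientation. The other 3 markers had means on 6 arrays each of -0.79 for Ckm, 0.19 for Mylpf and 0.54 for Tnnc2. On the 6 arrays that measured all 4 the median ran from -2.71 on array 2 to 0.77 on array 8. A wider list of 50 muscle genes, chosen after the values of Eef1a2 were seen, had 20 members tested, of which none passed, 10 lay above 0 and 10 below, with a median of 0.07. Its median on single arrays ran from -0.37 on array 2 to 1.09 on array 3 and correlated with Eef1a2 at r = 0.86 over the 8 arrays. That median was -0.37, -0.30, -0.16 and -0.11 on arrays 2, 4, 6 and 7, with the mutant in Cy5. On arrays 1, 3, 5 and 8 it was -0.06, 1.09, 0.18 and 0.07. The orientations thus separated as for Eef1a2, and the r includes that difference. Single genes of that list with at least 6 arrays went both ways, from r = -0.86 for Cacna1s to 0.93 for Myf6. Among the nerve markers, the myelin gene Mbp fell (-0.90 ± 0.20, SE, limma adjusted p = 0.0342). Among 20 neuron genes, also chosen afterwards, 7 were tested and none passed (median -0.45). The median of the neuron genes on single arrays correlated with Eef1a2 at r = 0.60. Single neuron genes with at least 6 arrays went both ways, from r = -0.86 for Gap43 to 0.94 for Nefm. The part of muscle or nerve RNA in the ratio of Eef1a2 was not tested. In such bulk RNA fewer cells of a type and less RNA per cell cannot be told apart.

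**Figure D2:**
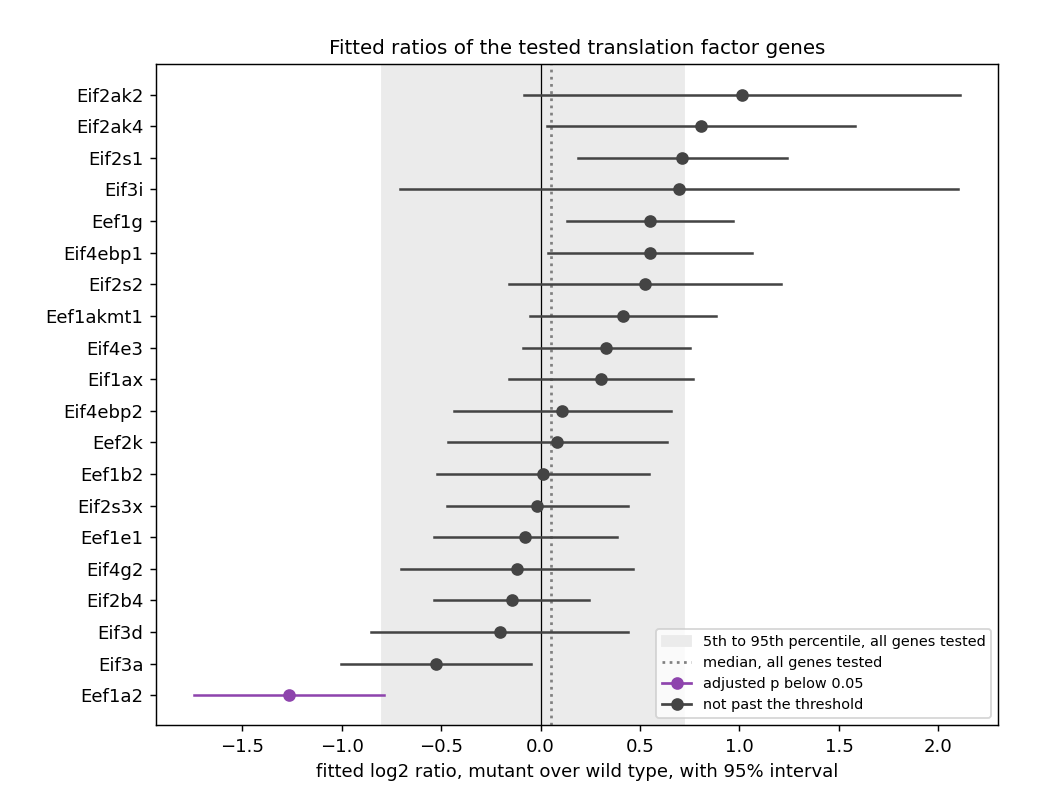
Fitted log2 ratio of mutant over wild type for the 20 tested translation factor genes, with 95% intervals from limma; the grey band spans the 5th to 95th percentile of all genes tested (-0.80 to 0.72) and the dotted line their median. Eef1a2 is the gene past the threshold, and Eif2ak2 and Eif3i have the widest intervals.

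The other elongation factor genes did not pass. Eef1g, a subunit of the eEF1B exchange complex, had ratios of 0.28, 1.22, -0.25, 0.62, -0.06, 0.81, 0.68 and 1.11 on arrays 1 to 8. All 4 arrays with the mutant in Cy5 were above 0, and those with it in Cy3 lay on both sides. The fitted ratio was 0.55 ± 0.19 (SE, adjusted p = 0.142), and with array weights, which give noisier arrays less influence, it was higher past the threshold (0.46, adjusted p = 0.0418). With those weights 13% of all genes tested passed. Eef1b2, the subunit of the same complex that exchanges the nucleotide, stood at 0.01 ± 0.24, with 3 of 7 arrays above 0. Eef1e1, a scaffold protein of the synthetase complex, stood at -0.08 ± 0.21. Its ratios were 0.42, 1.07 and 0.17 on arrays 4, 6 and 7, and -0.70, -1.31, -0.57 and -0.23 on arrays 1, 3, 5 and 8. Every array with the mutant in Cy5 was thus above 0 and every array with it in Cy3 below, with a dye part of 1.25 (adjusted p = 0.0854).

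Among the regulators of elongation factors, Eef1akmt1, a methyltransferase of eEF1A, had ratios of 2.30, 0.66, 0.99 and 0.62 on arrays 2, 4, 6 and 7. On arrays 1, 3, 5 and 8 they were 0.09, -0.65, -0.34 and -0.34, and the orientations did not overlap. It stood at 0.42 ± 0.21 (SE, adjusted p = 0.314) and the dye part 1.46 (adjusted p = 0.0696). Eef2k had ratios of -1.17, 1.35, 0.49, 0.26, -0.19, -0.72 and 0.10 on arrays 2 to 8. Arrays 2 and 3 were its extremes, and it stood at 0.08 ± 0.25 (SE, adjusted p = 0.879).

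None of the eIF2 subunits passed. Eif2s1, the alpha subunit that the stress kinases phosphorylate, had ratios of -0.49, 1.61, -0.07, 0.93, 0.48, 0.84, 0.67 and 1.73 on arrays 1 to 8. Arrays 2 and 8 were the highest and arrays 1 and 3 lay below 0. The fitted ratio was 0.71 ± 0.24 (SE, 95% interval 0.19 to 1.24, adjusted p = 0.129), the second smallest p of the 20 genes. Eif2s2, the beta subunit, was likewise lowest on array 1 and highest on array 8, at -0.98, 1.11, -0.00, 0.83, -0.31, 0.50, 0.57 and 2.49. It stood at 0.53 ± 0.31 (SE, adjusted p = 0.381), at 0.16 without array 8 and at 0.14 with array weights. Without arrays 2 and 8 Eif2s1 stood at 0.39 and Eif2s2 at 0.10. The ratios of both genes were above 0 on all 4 arrays with the mutant in Cy5. Over 8 arrays they correlated at r = 0.91, and at 0.83 without arrays 1 and 8. The gamma subunit gene Eif2s3x correlated with Eif2s1 at 0.15 and with Eif2s2 at 0.06. Outside the complex, Eif4ebp1 correlated with Eif2s1 at 0.87 and Eef1g at 0.83.

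Eif2s3x, the X-linked gamma subunit, stood at -0.02 ± 0.21 (SE, adjusted p = 0.971). Its values kept between -0.14 and 0.74 but for array 7 at -1.14. Eif2s3y, its Y-linked copy, had 5 values, 0.77 on array 4, -0.10 on array 5, -0.83 on array 6, 0.68 on array 7 and 2.81 on array 8. These 5 values had a mean of 0.67 ± 1.36 (SD, n = 5). Uty, another Y-linked gene, was at -1.55 on array 5, 0.16 on array 7 and 2.85 on array 8. Array 8 was thus high for both Y-linked genes, and since the labels give no sex, the part of the sexes of the pups in these ratios was not tested. Eif2b4, a subunit of eIF2B, had ratios of -0.06, -0.41, 0.46, -0.14, 0.43, -0.67, -0.26 and -0.52 on arrays 1 to 8. All arrays but 3 and 5 lay below 0, and it stood at -0.15 ± 0.18 (SE, adjusted p = 0.685).

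The 2 tested eIF2 kinases had the highest fitted ratios of the 20 genes, and neither passed. Eif2ak2, the kinase PKR that double-stranded RNA activates, had ratios of 0.41, -0.24, 0.35, 1.10, 0.33, 0.91, -0.31 and 5.55 on arrays 1 to 8. Array 8 lay far above the rest. It stood at 1.01 ± 0.50 (SE, adjusted p = 0.295), and at 0.36 without array 8. Eif2ak4, the amino acid sensor GCN2, had ratios of 0.24, 3.12, -1.004, 0.77, 0.50, 0.28, 0.52 and 2.02 on arrays 1 to 8. Arrays 2 and 8 were far above the rest and array 3 was the single array below 0. It stood at 0.81 ± 0.36 (SE, adjusted p = 0.236), at 0.48 without array 2 and at 0.22 without arrays 2 and 8. Eif2ak3, the endoplasmic reticulum kinase PERK, was above 0 on 5 of 5 arrays, at 0.19, 0.24, 0.14 and 0.37 on arrays 4 to 7 and 2.17 on array 8. Under the looser filter it stood at 0.72 ± 0.31 (adjusted p = 0.327). Eif2ak1, the haem-regulated kinase, had 5 values from -0.40 on array 5 to 1.11 on array 8, with 4 above 0. Array 8 held the highest value of Eif2ak1, Eif2ak2 and Eif2ak3, and the next to highest of Eif2ak4, below array 2. The SD over all rows of array 8 was 1.10, against 0.57 to 1.599 on the others.

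None of the 3 tested eIF3 subunits passed. Eif3a, the large subunit around which eIF3 assembles, had ratios of 0.01, -1.81, 0.88, -0.55, 0.07, -0.60, -1.71 and -0.49 on arrays 1 to 8. All arrays with the mutant in Cy5 lay below those with it in Cy3. The fitted ratio was -0.52 ± 0.22 (SE, adjusted p = 0.216), with a dye part of -1.29 (adjusted p = 0.0863). Eif3i, a WD repeat subunit, had ratios of -0.08, -1.01, 0.36, 0.57, -0.26, 0.14 and 5.96 on arrays 1 to 6 and 8. Array 8 again lay far above the rest. It stood at 0.70 ± 0.64 (SE, adjusted p = 0.578), and at -0.05 without array 8. Eif3d, a subunit that can bind the cap, stood at -0.20 ± 0.29 on 7 arrays, with -2.40 on array 2 and no value below -0.32 elsewhere. Eif3g, an RNA-binding subunit, had 6 values from -1.84 on array 2 to 1.55 on array 8, with 3 above 0. Array 2 was the lowest for all 4 subunits.

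Of the eIF4 factors none passed. Eif4e3, a cap-binding protein of the eIF4E family, had ratios of 0.29, 0.76, 0.56, -0.31, 0.68, 0.18 and 0.38 on arrays 1, 2, 4, 5, 6, 7 and 8. Array 5 was the single array below 0, and it stood at 0.33 ± 0.19 (SE, adjusted p = 0.370). Eif4g2, a relative of the scaffold eIF4G that lacks the binding site for eIF4E, had ratios of -0.15, -1.89, 0.93, 0.50, 0.03, -0.00, -1.24 and 0.88 on arrays 1 to 8. Arrays 2 and 7 were low and the orientations overlapped, with a fitted ratio of -0.12 ± 0.27 (SE, adjusted p = 0.837). Eif4a2, a helicase, had 5 values between -0.47 and 0.22, 4 of them below 0. Eif4e, the cap-binding protein itself, had values of -0.32, 0.21, -0.09 and -0.36 on arrays 1, 4, 5 and 6. Under the looser filter Eif4e stood at -0.14 with a 95% interval from -0.78 to 0.50.

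The eIF4E binding proteins had ratios above 0 without passing. Eif4ebp1, the repressor that TOR signalling switches off, had ratios of -0.49, 1.75, 0.99, -0.11, 0.60, 0.67 and 0.88 on arrays 1, 2, 4, 5, 6, 7 and 8. Arrays 1 and 5 were the 2 below 0, and it stood at 0.55 ± 0.23 (SE, adjusted p = 0.224). Eif4ebp2, its relative, had ratios of 0.68, 0.87, 1.12, -0.99, 0.48, -0.16, -0.36 and -0.77 on arrays 1 to 8. These lay on both sides of 0 in both orientations, and it stood at 0.11 ± 0.25 (SE, adjusted p = 0.837). Eif1ax, the X-linked gene of the scanning factor eIF1A, stood at 0.31 ± 0.21 (adjusted p = 0.452), with 5 of 8 arrays above 0 and 1.32 on array 3 as the highest.

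**Figure D3:**
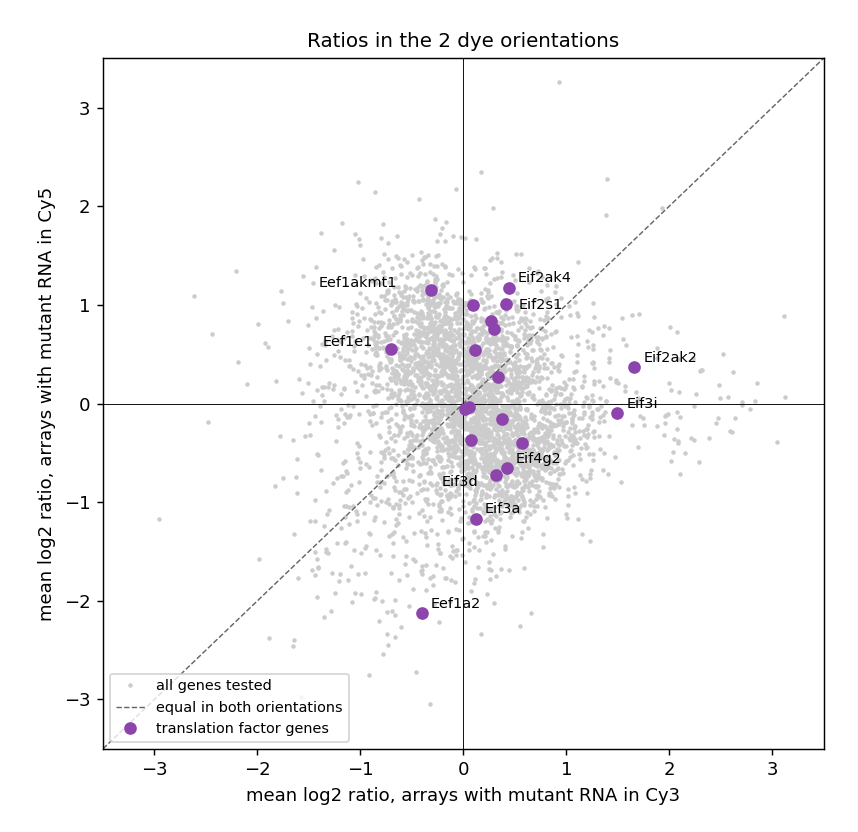
Mean log2 ratio over arrays with the mutant RNA in Cy3 (horizontal axis) and in Cy5 (vertical axis) for the 20 tested translation factor genes (purple, the more distant ones named) and all 3779 genes tested (grey); the dashed line marks equal means. Eef1a2 lies at -0.40 and -2.13, below 0 in both orientations, while Eef1e1 and Eef1akmt1 have opposite signs in the 2 orientations.

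Values that separated by dye orientation were no more common among these genes than over all genes tested. The 2 orientations did not overlap for 4 of 20 genes, Eef1a2 and Eif3a with the Cy3 arrays higher and Eef1e1 and Eef1akmt1 with the Cy5 arrays higher, against 26.4% of all genes tested. No dye part of the 20 passed the test, while 1.75% of all genes did. It was above 0 for 8 of the 20, 40.0% against 44.9% over all genes. Over the translation factor genes alone, arrays of the same orientation correlated at a median r of 0.44 and those of opposite orientation at 0.05. No gene of the 20 had 1 sign on every array, against 6.99% of all genes tested.

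The median of these genes on single arrays overlapped between the orientations. It was -0.08, -0.07, 0.35, 0.50, -0.06, 0.09, 0.17 and 0.88 on arrays 1 to 8, with 16 to 26 genes measured. Array 8 had the highest median and array 4 the next, where 17 of 25 and 19 of 26 genes were above 0, while over all genes the medians of these arrays were -0.04 and 0.09. Array 2 spread widest among arrays with the mutant in Cy5, from -2.40 for Eif3d to 3.12 for Eif2ak4. The range on array 5 was the narrowest, from -0.57 for Eef1e1 to 0.50 for Eif2ak4.

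The most alike patterns were sought among 208 pairs of these genes with at least 6 shared arrays, where the median r was 0.07. The 3 highest were Eif2ak2 with Eif3i (r = 0.99, 7 arrays), Eif3d with Eif3g (0.95, 6 arrays) and Eif3a with Eef2k (0.95, 7 arrays). Without the 2 arrays farthest from the median of the first gene, r was 0.79, -0.74 and 0.83. The likeness of Eif3d and Eif3g thus rested on arrays 2 and 8. All such values share arrays and dye orientation.

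**Figure D4:**
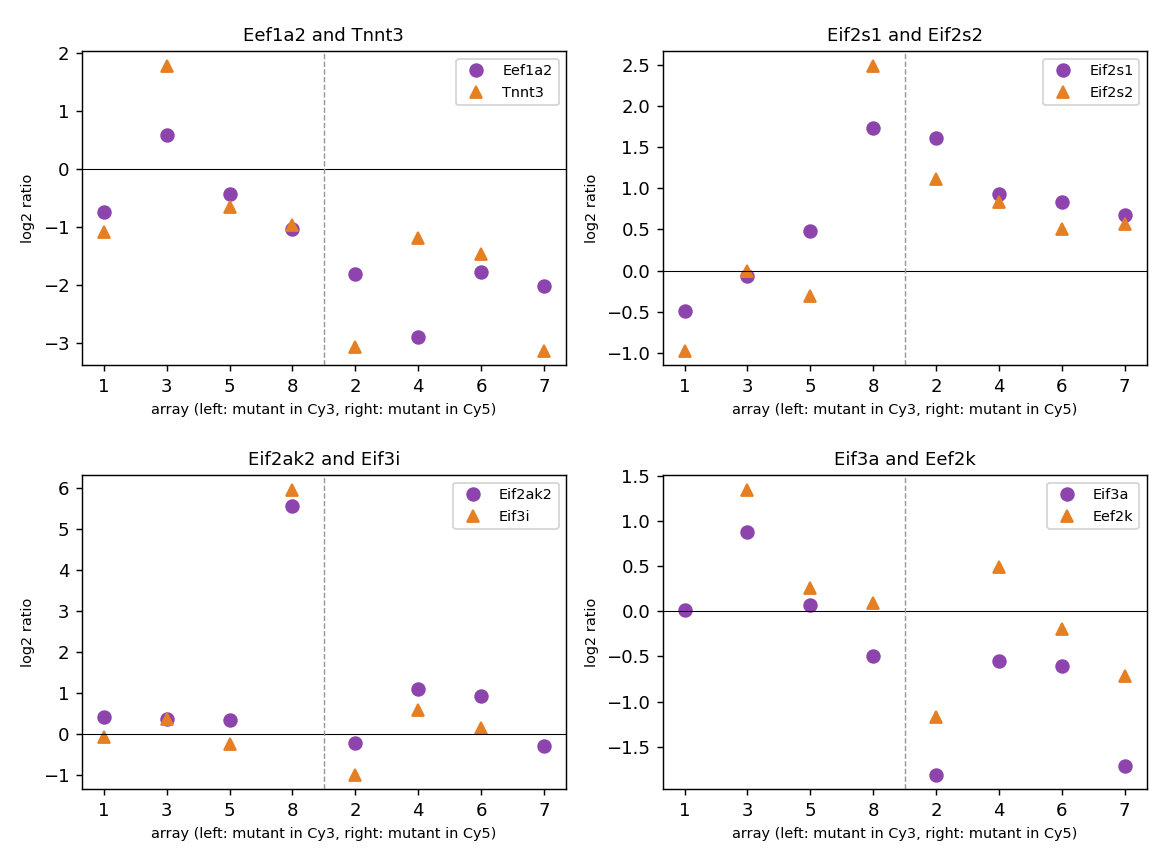
Log2 ratio on each array for 4 pairs of genes, with arrays ordered by orientation (left of the dashed line the mutant RNA in Cy3, right of it in Cy5). Eef1a2 and the muscle gene Tnnt3 are both above 0 on array 3 alone, Eif2s1 and Eif2s2 are lowest on array 1, and Eif2ak2 and Eif3i are far above their other values on array 8.

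Other genes of protein synthesis were read from lists. Of 64 tested genes in these lists 1 passed, against 3.47% of all genes tested. In the cytosolic ribosomal proteins 47 were tested, and Rpsa, of the small subunit, fell (-0.78 ± 0.17, SE, adjusted p = 0.0283). That call was lost without array 1, 2, 5, 6 or 7, without the dye term, on arrays 4 to 8 alone and without arrays 2 and 8, where 0 genes of these lists passed. It was also lost with the table read as Cy5 over Cy3 (limma adjusted p = 0.607), where the 3 list genes that passed were all higher. None of the 47 rose, although 40 had fitted ratios above 0 and their median was 0.32. Over all genes tested 55.3% were above 0 and the median was 0.05. Rpl7 was the highest at 1.27 ± 0.64 (adjusted p = 0.297), with 7.39 on array 8. None of 4 aminoacyl-tRNA synthetase genes, which charge transfer RNAs, passed, from Vars at -0.19 to Hars at 0.20. Neither gene of termination and recycling did, with Denr at -0.40 and Abce1 at 0.13. Of 3 partners of eIF4F none passed, from Mknk2 at -0.04, a kinase of eIF4E, to Paip2 at 0.24.

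None of 5 TOR pathway genes passed, from Akt1 at -0.52 to Mlst8, a subunit of the TOR complexes, at 0.56 ± 0.21 (adjusted p = 0.180). In the integrated stress response, the programme that eIF2 phosphorylation starts, none of 3 passed. The phosphatase subunit Ppp1r15a stood at 0.49 ± 0.22 (adjusted p = 0.247), Atf4 at 0.31 ± 0.23 and Atf3 at -0.35 ± 0.24. The enzymes of hypusine and diphthamide and the mitochondrial factors had no row under these names, and 1 selenocysteine gene was measured and not tested. Markers of cell types moved beside these ratios. Krt1 rose among 3 keratinocyte markers, with Ivl at -1.06 (adjusted p = 0.0733), and Cfd among 4 of adipocytes, with Car3 at -0.86 (adjusted p = 0.0667). Vim (1.17, limma adjusted p = 0.00889) and Fbn1 (0.75, limma adjusted p = 0.0496) rose among 5 of fibroblasts, of which 4 had fitted ratios above 0. Fbn1 lay just under the threshold and was below 0 on 2 of 8 arrays. Krt31 and Krt71 fell among 8 of the hair shaft and inner root sheath, of which 5 were below 0 and Krt35 was the highest at 0.63. C1qb fell among 6 immune markers, of which 4 were above 0, with a list median of 0.28 and Tyrobp the highest at 0.71. None of 3 markers of melanocytes or of 3 of blood and vessels passed. Their part in the ratios of the translation factor genes was not tested.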

How the data were processed

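The authors deposited 1 table of log ratios of the 2 channels of 8 arrays, taken here as log2 values; for image analysis, normalization, base and direction the sources used here give nothing. Per the labels, dye coupling and hybridization followed standard TIGR protocols. Control spots (1235 rows) were left out. Of 21997 other rows, 6749 were named by RefSeq accession and 77 by synonym through a gene table of GRCm38.p6. Rows of a gene were averaged (Gapdh had 232 spots). Genes with values on at least 3 of 4 arrays of each orientation, 3779 in all, were fitted with limma 3.58.1 (R 4.3.3) for the mean ratio and a dye difference (mutant in Cy5 minus mutant in Cy3), empirical Bayes moderation and Benjamini-Hochberg adjustment over all genes at 0.05. Missing values were left missing. The script was run on simulated data, with arrays drawn as independent. Each gene had its SD over all its arrays, dye difference included, and no dye effect was added. The rates are thus only a rough guide to the fit of the real data. There 36 of 100 genes with a log2 change of 1 were called, and 94 of 100 with a change of 2. A gene that did not pass can therefore still differ. The number of arrays limits the precision.

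The genes and lists were chosen with earlier results of these data known. Each gene of the family is named. Full values are given for those past the threshold and the highest and lowest of each functional group, and of other lists the highest, the lowest and those past the threshold are named. Alternatives were other filters, normalizations, array weights, no dye term, a reading by dye, fewer arrays and single rows. The other tested nerve marker is not reported here.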

Additional observations from a re-analysis of the deposited data

Results flagged for a closer look

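Dixon's test was run on 41 sets of values over arrays. In 8 of them 1 array stood far from the others. The chance rate of 1 in 20, here 2.05, holds for unselected and independent sets. These sets share arrays of unequal spread, and some genes were taken as the highest or lowest of their lists. The count of 8 therefore cannot be set against 2.05. It was array 8 in 4 sets, array 2 in 3 and array 7 in 1. On array 8, Eif2ak2 was at 5.55 (next highest 1.10), Eif3i at 5.96 (0.57), Eif2ak3 at 2.17 (0.37) and the ribosomal protein gene Rpl7 at 7.39 (2.01). Low values on array 2 were those of Eif3d at -2.40 (next lowest -0.32), the recycling factor gene Denr at -4.46 (-0.69) and the kinase gene Akt1 at -3.91 (-0.67). Eif2s3x was at -1.14 on array 7 (-0.14). The cause was not tested.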

How the results depend on the processing

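No paired analysis was possible because all arrays form 1 group. Eef1a2 stayed lower past the threshold with the looser filter, values on all arrays, median centring, scaling to a common spread, quantile normalization, array weights, without arrays 2 and 8 and without any single array. It kept its sign and lost the call without the dye term, on arrays 4 to 8 alone and with the table read as Cy5 over Cy3, so that 0 of the translation factor genes passed in each of these. With array weights 2 passed, Eef1a2 and Eef1g, while 13% of all genes tested did. Leaving out 1 array, the count was 1 throughout, and the median over the genes, 0.21, ran from 0.083 to 0.29. It was -0.039 read as Cy5 over Cy3 and 0.10 with equal spread.

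The count over all genes, 131, ran from 53 to 130 without 1 array. Of the same 3779 genes it was 206 with equal spread, 350 with quantile normalization (128 higher and 222 lower) and 491 with array weights (184 higher and 307 lower). It was 64 without the dye term and 66 read as Cy5 over Cy3 (62 higher and 4 lower). All 64 were among the 131 of the main fit, but of the 66 only 3 were. Other settings tested other numbers. With values on all 8 arrays it was 81 of 1613 (5.02%, against 3.47% in the main fit). It was 10 of 4262 on arrays 4 to 8 and 45 of 2097 without arrays 2 and 8 (a set chosen after seeing the data). For single rows it was 504 of 11974. In the lists of protein synthesis the count of 1 became 2 of 88 with the looser filter, where 1.7% of all genes passed. It was 3 with quantile normalization (9.26% of all genes), 4 with array weights (13%) and 3 read as Cy5 over Cy3 (1.75%). The 3 by that last reading were all higher and did not include Rpsa. It was 0 without the dye term (1.69%), on arrays 4 to 8 (0.235%) or without arrays 2 and 8 (2.15%). Leaving out 1 array, it ran from 0 to 1 (0, with Rpsa lost, without array 1, 2, 5, 6 or 7).

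Signs turned for genes that had not passed. Read as Cy5 over Cy3, the ratio was -0.042 for Eef1b2, 0.63 for Eef1e1, -0.48 for Eef2k, -0.032 for Eif1ax, -0.65 for Eif2ak2, -0.80 for Eif3i and -0.27 for Eif4ebp2. On arrays 4 to 8 it was 0.075 for Eef1e1, 0.0048 for Eif2s3x, 0.11 for Eif3d, -0.32 for Eif4ebp2 and 0.10 for Eif4g2. With array weights Eef1b2 was at -0.18, Eef1e1 at 0.093 and Eif2s3x at 0.083. Eef1b2 was at -0.026 with equal spread and -0.042 with quantile normalization, and Eif4g2 at 0.013 without arrays 2 and 8. Leaving out 1 array, ranges that crossed 0 were -0.21 to 0.18 for Eef1b2, -0.21 to 0.024 for Eef1e1, -0.11 to 0.21 for Eef2k, -0.15 to 0.16 for Eif2s3x, -0.34 to 0.075 for Eif3d, -0.047 to 0.99 for Eif3i, -0.061 to 0.30 for Eif4ebp2 and -0.31 to 0.089 for Eif4g2. Genes with too few values could not be fitted with values required on all 8 arrays, on arrays 4 to 8 or without arrays 2 and 8. Among genes with a ratio over 0.3 in size, leaving out 1 array moved others by over 1.5 times. Without array 8 Eif2ak2 went from 1.01 to 0.36, Eif2s2 from 0.53 to 0.16 and Eif4ebp1 from 0.55 to 0.35. Without array 2 Eif2ak4 went from 0.81 to 0.48, Eef1akmt1 from 0.42 to 0.22 and Eif1ax from 0.31 to 0.20. Eif1ax was at 0.14 without array 3. The causes were not tested. Signal over background was not analysed here.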
